A study of Mus musculus with 3 samples.

Results

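The genes described here encode 9 proteins of the machinery that fuses insulin granules with the plasma membrane: Snap25, Stx1a, Vamp2, Syt4, Syt7, Syt13, Rims2, Unc13a and Rab3a. They were taken as a named list of 9 among 22350 protein-coding genes annotated on chromosomes 1 to 19 and X, chosen by name with earlier results of these data known, so that their comparisons with all genes and with paralogs are descriptions. For each gene, the regions enriched for histone 3 lysine 4 monomethylation (H3K4me1) that overlapped it, or whose nearest edge lay within 20 kb of any of its annotated transcriptional start sites (TSS), were collected from cytokine treated mouse islets. This gave 57 of the 65709 regions of the list.

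The study compared islets cultured with and without proinflammatory cytokines, by RNA-seq and by ChIP-seq, in which an antibody pulls down chromatin bearing a mark so that the attached DNA can be sequenced. The library analysed here came from islets of CD1 mice of 8 to 12 weeks by the sample labels (the methods name the mice as ICR, of both sexes), kept for 4 days in RPMI with IFNγ at 1.6 ng/ml, Il-1β at 0.25 ng/ml and TNFα at 0.16 ng/ml. DNA from 4 ChIP experiments was pooled into 1 library, so the values below have no replicate error and no difference was tested. H3K4me1 regions of untreated islets and RNA levels were not analysed here, and the regions therefore describe 1 condition and not a response to the cytokines.

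A β-cell secretes insulin when calcium enters and granules docked at the plasma membrane fuse with it. Fusion is driven by a SNARE complex, in which VAMP2 on the granule zips together with syntaxin-1A and SNAP-25 on the plasma membrane. Synaptotagmins act at this complex, some of them as its calcium sensors, while Munc13-1 (Unc13a) prepares syntaxin for assembly, and RIM2 (Rims2) ties granules that carry the GTPase Rab3A to the release site. Neurons use the same proteins for transmitter release. H3K4me1 marks active and poised enhancers and the flanks of promoters, whereas the nucleosomes right at a strong start site usually carry trimethylation of the same residue instead.

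Islet preparations hold β-cells, other endocrine cells and remnants of other tissue, and a region in this list can come from any of them. Fewer cells carrying the mark and less of the mark per cell cannot be told apart. All 7 β-cell marker genes examined (Ins1, Ins2, Pdx1, Nkx6-1, Mafa, Slc2a2 and Iapp) had at least 1 region by the same rule, although a region covered a TSS of only 2 of them, Ins2 and Slc2a2. Over all protein-coding genes, 76.4% had at least 1 region and 39.1% had a TSS covered, so such counts over a few markers do not set a cell type apart. Regions were also found at 5 of 5 neuronal markers (a TSS covered at 2), 3 of 3 duct markers (3) and 3 of 5 leukocyte markers (1). The same held for 3 of 4 endothelial and stromal markers (3) and 3 of 4 acinar markers (0). Regions lay at 2 of 3 alpha-cell markers (1) and 2 of 2 delta-cell markers (0). None was found at Gcg, Cela2a, Cd3e, Itgam or Cdh5. What part cells other than β-cells have in the regions of the exocytosis genes was not tested.

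All 9 exocytosis genes had at least 1 H3K4me1 enriched region, as did 76.4% of protein-coding genes. The number ranged from 2 regions at Syt4 and Syt13 to 20 at Rims2, with a median of 5, against a median of 2 over protein-coding genes. This number grows with the length of a gene, so the covered share of each gene's window (the gene joined with 20 kb on each side of every TSS) is given beside it. The median covered share was 39.6% for the exocytosis genes and 6.5% for protein-coding genes. It was 28.6% for the β-cell markers, 29.9% for the duct markers and at most 9.68% for the other marker groups above. Of the 9 genes, 8 lay above 16.1%, the upper quartile that by definition 25.0% of protein-coding genes exceed. Stx1a, with 16.6%, lay just above this value, and Rims2, with 5.8%, was the gene below it.

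The genes formed a wide range of covered shares. Syt13 was highest at 73.8%, above 99.9% of protein-coding genes. Syt7 (54.1%), Rab3a (53.0%) and Vamp2 (51.6%) followed close to each other, and Snap25 stood at 39.6%. Unc13a (20.9%), Syt4 (19.5%) and Stx1a (16.6%) were lower, and Rims2 came last. This order depended in part on the window. With 10 kb around each TSS in place of 20 kb, Syt4 had 39.0% covered, close to Snap25 at 44.1%, and with 50 kb it had 7.8%, close to Rims2 at 5.2%, from the same 7.8 kb of regions. With 50 kb, Syt13 had 46.8% and Syt7, at 56.7%, was the highest. Without the gene bodies, Rims2 had 2.5%. With 1 library, the order among neighbours cannot be set against any error.

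**Figure D1:**
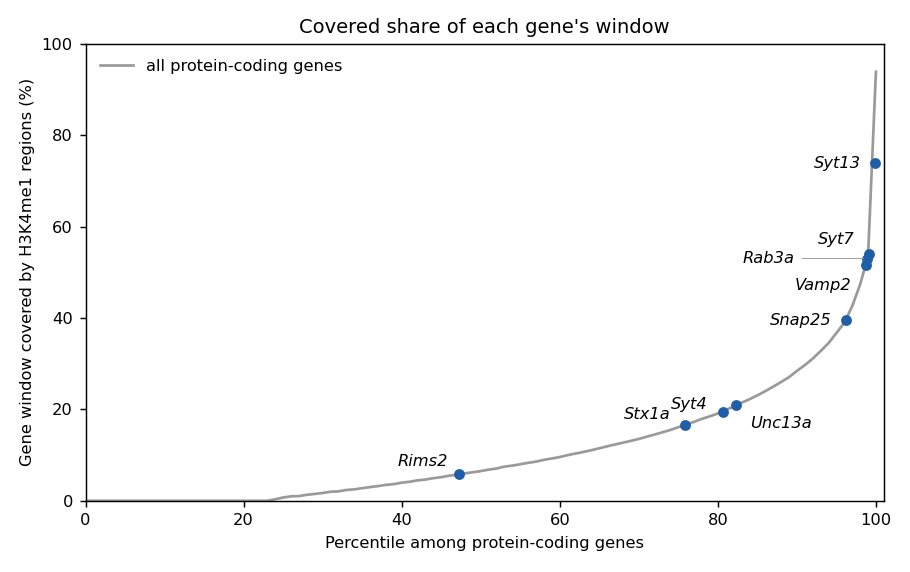
Share of each gene's window covered by H3K4me1 regions (y axis, %) against its percentile among 22350 protein-coding genes (x axis). The grey line is all protein-coding genes and the points are the 9 exocytosis genes, of which Syt13, Syt7, Rab3a, Vamp2 and Snap25 lie above the 96th percentile and Rims2 lies at 47.3.

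Since the window of a long gene holds mostly gene body, the same share was also taken over the 40 kb centred on the first TSS alone, where every gene has the same length. Syt7 then had 68.4% covered, Syt13 60.1%, Snap25 54.0%, Vamp2 53.0%, Rab3a 50.9%, Unc13a 28.0%, Stx1a 24.0%, Syt4 19.5% and Rims2 4.0%. The median of the 9 genes was 50.9%, against 7.5% for protein-coding genes, whose upper quartile was 17.8%. Rims2 was the only one of the 9 below the median of protein-coding genes by either measure.

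The regions themselves were broad beside those of the whole list. Their median width was 2.4 kb, with quartiles of 1.2 and 4.2 kb and a range from 0.2 to 41.2 kb, whereas the median over the whole list was 1.2 kb, with quartiles of 0.6 and 2.4 kb. Of the 57 regions, 13 (22.8%) were wider than 5 kb, as were 8.13% of all regions. They lay at Syt7 (5 regions), Snap25 (3), Syt13 (2), Vamp2, Syt4 and Rab3a, and there were none at Stx1a, Rims2 or Unc13a. Together the 57 regions measured 237.6 kb, of which 229.2 kb fell inside the windows. These regions were taken by overlap with a gene or its TSS windows, whereas the whole list holds regions at any distance from a gene. Widths of regions taken by the same rule at other genes were not measured.

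A region covered at least 1 TSS of 5 of the 9 genes (Snap25, Stx1a, Vamp2, Rims2 and Rab3a), compared with 39.1% of protein-coding genes. For Snap25, Stx1a, Vamp2 and Rab3a this held for the first TSS, the one furthest upstream, as it did for 31.1% of protein-coding genes. For Rims2 it held for an internal TSS alone. Within 2 kb of the first TSS, H3K4me1 lay on both sides for 6 genes (the same 4 together with Syt13 and Unc13a), compared with 41.0% of protein-coding genes. At Syt4 and Syt7 it lay on the upstream side alone within 2 kb, with the downstream region starting 2069 and 2021 bp past the first TSS, and at Rims2 on neither side.

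The uncovered first TSS of Syt13, Unc13a, Syt7 and Syt4 each sat in a short interval between neighbouring regions. This interval measured 1.6 kb at Syt13, 1.6 kb at Unc13a, 2.8 kb at Syt7 and 3 kb at Syt4. The edges are known to 200 bp at best, since every region starts and ends on a grid of 200 bp. At Rims2 the first TSS lay in an interval of 87.8 kb, with the nearest region 72.5 kb upstream and 15.3 kb downstream.

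**Figure D2:**
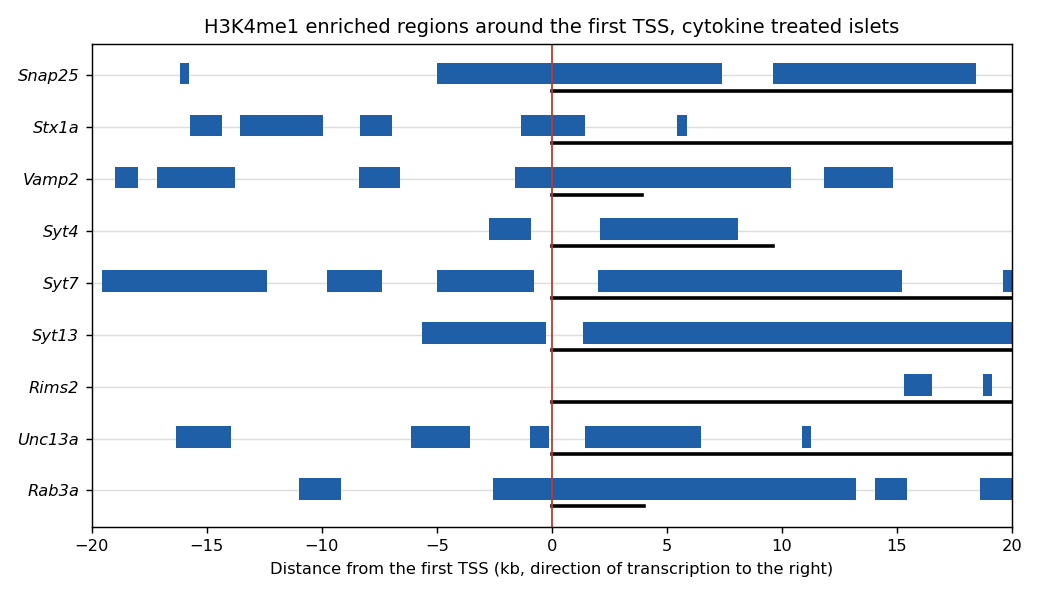
H3K4me1 enriched regions (blue blocks) within 20 kb of the first TSS (red line) of the 9 exocytosis genes, with the annotated gene as a black bar and transcription to the right. A block crosses the line at Snap25, Stx1a, Vamp2 and Rab3a, blocks flank it at Syt4, Syt7, Syt13 and Unc13a, and Rims2 has none until 15.3 kb downstream.

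By distance from the first TSS, read in steps of 200 bp, coverage of the 9 genes was highest not at the TSS but 2 to 5 kb downstream. There regions covered 77.8% of the steps on average, against 19.1% over protein-coding genes. The first 2 kb downstream were covered at 47.8% (31.1% over protein-coding genes) and the 2 kb upstream at 65.6% (21.8%). Further away, the averages were 61.3% from 5 to 10 kb downstream (12.3%), 39.3% from 10 to 20 kb downstream (10.2%), 43.7% from 2 to 5 kb upstream (9.09%), 18.2% from 5 to 10 kb upstream (7.69%) and 22.7% from 10 to 20 kb upstream (7.87%). In the band from 2 to 5 kb downstream, 7 of the genes were covered at every step and Stx1a and Rims2 were covered at 0%.

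**Figure D3:**
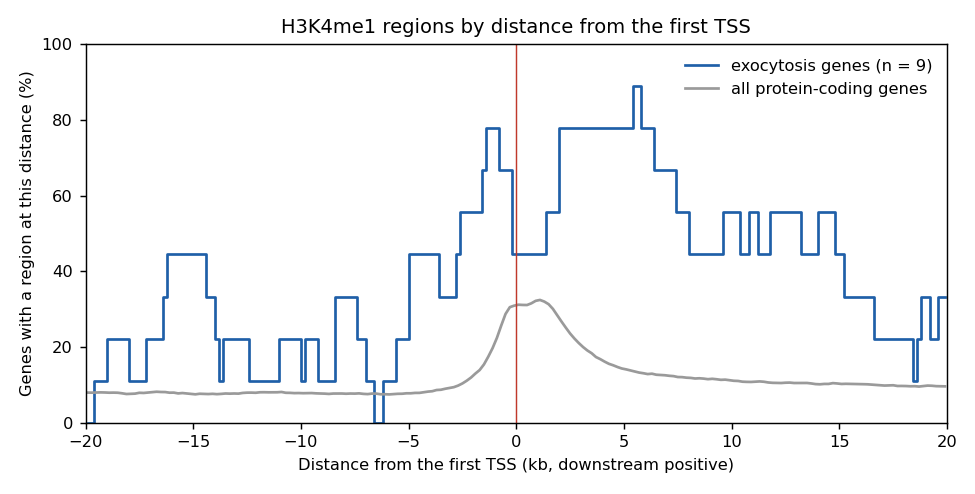
Percentage of genes with an H3K4me1 region at each distance from the first TSS (x axis, kb, in steps of 200 bp), for the 9 exocytosis genes (blue) and for all protein-coding genes (grey). The grey line peaks near the TSS, whereas the blue line dips there and is highest downstream of it.

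To show the sequence at a covered and at an uncovered start, the reference of the build used by the authors (mm9) is printed from 100 bases upstream of the first TSS to 20 bases into the gene, 5′ to 3′ on the strand of the gene, with CG dinucleotides in capitals. Snap25 (chr2:136539089-136539208, plus strand) and Vamp2 (chr11:68901892-68902011, plus strand) lay inside a region. Syt13 (chr2:92755155-92755274, plus strand) and Unc13a (chr8:74195637-74195756, minus strand) lay in the intervals described above.
Snap25: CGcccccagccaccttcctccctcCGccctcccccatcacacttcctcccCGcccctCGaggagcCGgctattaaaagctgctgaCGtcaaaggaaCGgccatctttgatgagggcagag
Vamp2: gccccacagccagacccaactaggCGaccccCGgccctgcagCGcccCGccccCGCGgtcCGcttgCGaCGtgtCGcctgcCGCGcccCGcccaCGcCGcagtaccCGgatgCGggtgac
Syt13: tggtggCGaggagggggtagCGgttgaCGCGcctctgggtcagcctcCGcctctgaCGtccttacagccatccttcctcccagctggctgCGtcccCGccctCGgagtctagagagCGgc
Unc13a: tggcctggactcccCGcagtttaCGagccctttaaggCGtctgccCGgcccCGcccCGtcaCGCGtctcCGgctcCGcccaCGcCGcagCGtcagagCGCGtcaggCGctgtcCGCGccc

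These 120 bases held 7 CG dinucleotides at Snap25, 17 at Vamp2, 10 at Syt13 and 18 at Unc13a, so that a high number was found both with and without a region over the TSS. Over the 1 kb centred on the first TSS, the ratio of observed to expected CG ranged from 0.481 at Syt4 to 0.93 at Syt7, with Rims2 at 0.904, Unc13a at 0.812, Vamp2 at 0.727, Rab3a at 0.684, Stx1a at 0.587, Snap25 at 0.549 and Syt13 at 0.51. The median of protein-coding genes was 0.549. With a ratio of at least 0.6 and a GC content of at least 50% taken as CpG-rich, 5 of the genes (Vamp2, Syt7, Rims2, Unc13a and Rab3a) had CpG-rich starts. The covered share of the window moved with this property across protein-coding genes, with a median of 11.5% for the 9883 genes with CpG-rich starts and 2.21% for the other 12467. Set against the upper quartile of genes with the same kind of start (21.3% and 10.4%), 7 of the 9 genes lay above it, 3 of the 5 with a CpG-rich start and 4 of the 4 others.

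The SNARE genes are described first. Snap25, which encodes the plasma membrane SNARE that contributes a pair of helices to the complex, occupies chr2:136539189-136608164 (plus strand, mm9 as for all positions here) and had 6 regions. A region of 12.4 kb, from 136534201 to 136546600, covered all 3 annotated TSS positions, ran from -4988 to 7411 bp relative to the first and contained 148 bp of exon, all of it untranslated. A further 4 blocks of 8.8, 3.2, 6.4 and 4 kb followed inside the gene, the first 3 of them intronic and the last, from 136578601 to 136582600, with exonic sequence. They ended 43411 bp downstream of the first TSS, so that the last part of this 69.0 kb gene had no region. A region of 0.4 kb lay 15.8 kb upstream.

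Stx1a, the gene of syntaxin-1A, occupies chr5:135499352-135526970 (plus strand) and was the least covered of the SNARE genes. A region of 2.8 kb, from 135498001 to 135500800, covered 2 of its 5 TSS positions. In the 27.6 kb gene, the other region was an intronic one of 0.4 kb, from 135504801 to 135505200, and 6.69% of the gene was covered. The other 3 regions lay 7.0 to 15.8 kb upstream, and the midpoint of each was closer to the TSS of another gene (Abhd11 or 2010001M06Rik). The region from 135485801 to 135489400 covered a TSS of Abhd11.

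Vamp2, the gene of the granule SNARE, spans 3.9 kb (chr11:68901992-68905886, plus strand). It lay whole in a 12 kb region (68900401 to 68912400), together with all 5 of its TSS positions. The same region ran on over a TSS of Per1, a circadian clock gene whose nearest TSS lies 5611 bp from one of Vamp2. Of the 5 regions of Vamp2, 3 (18.4 of the 21.2 kb) covered a TSS of Per1 or Tmem107, and no region had its midpoint closest to a TSS of Vamp2. The H3K4me1 of this locus cannot be divided between Vamp2 and its neighbours from the list.

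The synaptotagmin genes were marked along their gene bodies. Syt13, an atypical synaptotagmin thought not to bind calcium, occupies chr2:92755255-92796215 (plus strand). A single region of 41.2 kb, from 92756601 to 92797800, began 1346 bp downstream of its TSS and continued past its end, covering 96.7% of the gene. Together with a region of 5.4 kb that ended 255 bp upstream of the TSS, it made up all the regions of this gene. No other coding gene has a TSS in the window.

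Syt7, a calcium sensor of high affinity, occupies chr19:10463580-10527671 (plus strand) and had 7 regions, of which 5 were wider than 5 kb. Upstream of the first TSS lay regions of 7.2, 2.4 and 4.2 kb, and downstream of it regions of 13.2, 9.6, 8.2 and 7.2 kb, with 49.4% of the gene covered. The widest, from 10465601 to 10478800, was intronic. The last, from 10527001 to 10534200, crossed the 3′ end of Syt7 and covered a TSS of Lrrc10b.

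Snap25 and Syt7 each held a match to RE1, the element bound by Rest, which represses neuronal genes outside the nervous system, inside an H3K4me1 region. RE1 was searched on both strands as TTCAGCACCNNGGACAGCGC with at most 3 mismatches over its 18 defined bases. The matches are printed with 40 bases on each side, 5′ to 3′, with the bases equal to the searched letters in capitals. That of Snap25 (chr2:136540034-136540133 as printed, plus strand) is intronic, centred 895 bp downstream of the first TSS, and has 1 mismatch. That of Syt7 (chr19:10477731-10477830 as printed, plus strand) is intronic, centred 14201 bp downstream of the first TSS, and has 2 mismatches. A second match of Syt7, with 3 mismatches, begins 38 bases after the start of the first. It lies within the same printed stretch apart from its context, and is left in lower case there.
Snap25: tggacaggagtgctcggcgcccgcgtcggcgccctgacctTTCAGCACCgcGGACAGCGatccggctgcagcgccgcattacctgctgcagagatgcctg
Syt7: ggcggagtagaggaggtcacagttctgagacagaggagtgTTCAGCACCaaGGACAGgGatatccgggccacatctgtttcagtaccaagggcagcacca

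Within 20 kb of the first TSS, 3 of the 9 exocytosis genes had an RE1 match, compared with 5.17% of protein-coding genes, and for Snap25 and Syt7 the match lay in a region, compared with 1.48%. The third gene was Syt4, whose match, with 1 mismatch, lies in UTR sequence 226 bp downstream of the TSS, in the interval without H3K4me1. The matches filled 3 of the 1188 bins of 200 bp covered by regions of the exocytosis genes (0.253%), against 0.0461% of all covered bins and 0.0147% of the bins outside regions. The neighbouring matches of Syt7 fill separate bins, so the 3 bins come from Snap25 and Syt7 alone. A match of letters is a description of the reference and not of binding, and no match within the set number of mismatches was found at the other 6 genes.

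Syt4, another synaptotagmin with altered calcium binding, spans 9.6 kb (chr18:31597462-31607069, minus strand). Its 2 regions measured 1.8 kb, from 31608001 to 31609800 upstream of the TSS, and 6 kb, from 31599001 to 31605000 inside the gene. The latter covered 62.4% of the gene, with 1241 bp of coding sequence. Both also overlapped the annotated lincRNA Gm16871.

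Rims2 and Unc13a act in docking and priming. Rims2 is the longest of the genes, with 484 kb (chr15:39029878-39513486, plus strand), and had the most regions of the 9 and the smallest covered share. All 20 regions lay inside the gene, with a median width of 1.2 kb against 3.4 kb for the regions of the other 8 genes. Of these, 9 lay in the first 80 kb, 6 between 80 and 200 kb and 5 beyond, and the longest stretch between neighbours was 124.6 kb. The region from 39223001 to 39224200, of 1.2 kb, covered the TSS located 193.8 kb downstream of the first, while the TSS at 0, 0.006 and 461.5 kb had none.

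The narrowest region of all 57, a single bin of 200 bp from 39221601 to 39221800, lay in an intron of Rims2, 1868 bp upstream of that internal TSS. It is printed whole as the smallest unit this list can hold (chr15:39221601-39221800, strand of the gene, CG in capitals).
Rims2: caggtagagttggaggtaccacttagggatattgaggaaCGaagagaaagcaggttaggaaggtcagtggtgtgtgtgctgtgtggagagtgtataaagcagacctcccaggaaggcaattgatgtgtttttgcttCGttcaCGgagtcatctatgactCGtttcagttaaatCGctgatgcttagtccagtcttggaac

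Unc13a, the gene of the priming factor Munc13-1, occupies chr8:74150614-74195656 (minus strand). Its 6 regions measured between 0.4 and 5 kb. A region of 0.8 kb, from 74195801 to 74196600, ended 145 bp upstream of the first TSS, and one of 5 kb, from 74189201 to 74194200, began 1456 bp downstream of it. Another of 2.4 kb, from 74152001 to 74154400, lay near the 3′ end of the gene, over coding sequence and UTR. The 2 further upstream overlapped Jak3, a kinase of cytokine receptors, and the one from 74199201 to 74201800 covered a TSS of Jak3 and one of Gm9933.

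Rab3a, the gene of the granule GTPase, spans 4.0 kb (chr8:73278578-73282576, plus strand). A 15.8 kb region (73276001 to 73291800) covered the whole gene with all 6 TSS positions. It also covered a TSS of Mpv17l2 and one of Ifi30, a lysosomal reductase gene known to be induced by IFNγ. As at Vamp2, 3 of the 4 regions (20.6 of the 22.4 kb) covered a TSS of another coding gene, here Mpv17l2, Ifi30 or Pik3r2, and no region had its midpoint closest to a TSS of Rab3a. Whether H3K4me1 of the neighbours sets the covered share of Vamp2 and Rab3a was not tested.

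**Figure D4:**
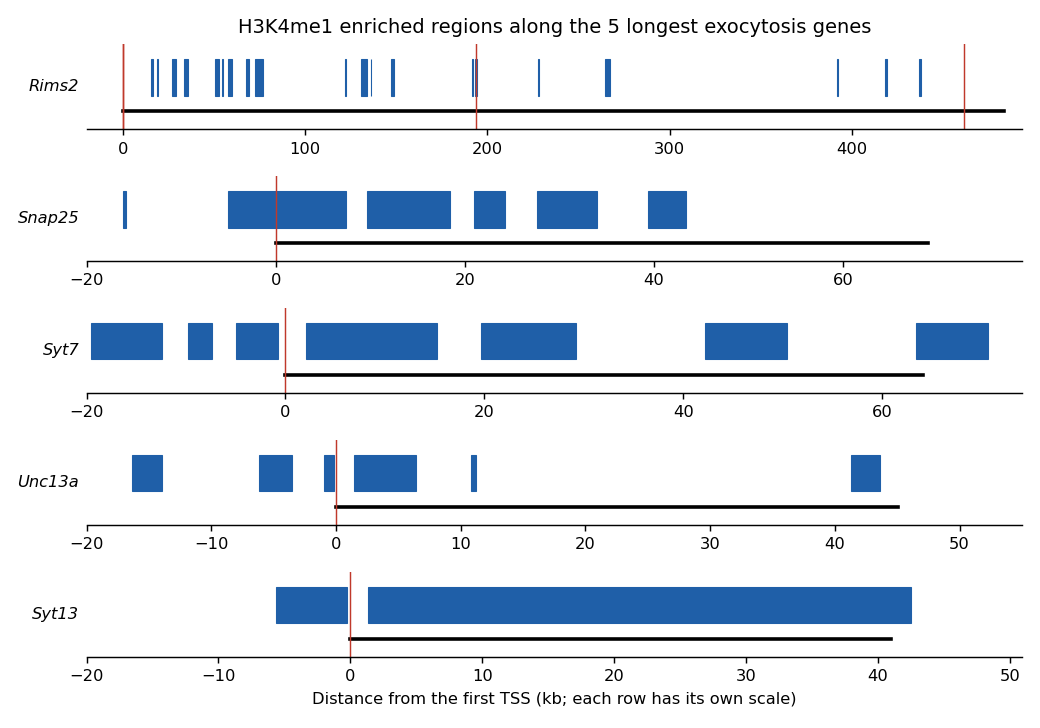
H3K4me1 enriched regions (blue blocks) along the 5 longest exocytosis genes, by distance from the first TSS in kb with a scale of its own in each row. The black bar is the annotated gene and red lines are the TSS positions of Rims2 and the first TSS of the others; Syt13 is filled by 1 block of 41.2 kb, whereas Rims2 holds 20 narrow ones.

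Across the 9 genes, 38 regions overlapped the gene itself, 16 lay upstream and 3 downstream of it. Among those that overlapped the gene, 5 covered a TSS of it, 21 of the others were purely intronic and 12 contained exonic sequence. The midpoint of 26 regions was closest to a TSS of the exocytosis gene itself and that of 31 to a TSS of another annotated gene, pseudogenes and noncoding RNAs included. Regions that covered a TSS of another protein-coding gene numbered 9 and held 52.4 of the 237.6 kb. None of them lay at Snap25, Syt4, Syt13 or Rims2.

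Other short sequences were counted in the same bins, on both strands. The cyclic AMP response element TGACGTCA was found in 4 of the 1188 bins (0.337%), against 0.213% of all covered bins and 0.105% of the others. 1 of them lies 14 bp upstream of the first TSS of Snap25, inside the sequence printed above. The element GGGANTTTCC, a form bound by NF-κB, was found in 3 bins (0.253%), against 0.254% of all covered bins and 0.156% of the others, and TTCNNNGAA, the form bound by STAT factors, in 68 bins (5.72%), against 6.43% of all covered bins and 7.8% of the others. Within these counts of 3 and 4 bins, a single match weighs heavily on the share.

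The exocytosis genes were set beside 27 paralogs from the same families. In 7 of the 9 families the exocytosis gene had a larger covered share than each of its listed paralogs. Synaptotagmins were split into separate lists, and Syt4 (19.5%) lay below Syt2 (20.4%), listed under Syt7. At Vamp2 and Rab3a, regions covering a TSS of another coding gene held 18.4 of 21.2 kb and 20.6 of 22.4 kb, which was not counted for paralogs. Windows differ in length, up to 655.3 kb at Rims1, and the equal 40 kb was not applied to paralogs. The share was 73.8% for Syt13 against 2.97% for Syt15, 54.1% for Syt7 against at most 20.4% (Syt2), 53.0% for Rab3a against at most 26.0% (Rab3b) and 51.6% for Vamp2 against at most 22.5% (Vamp3). It was 39.6% for Snap25 against at most 14.5% (Snap47), 20.9% for Unc13a against at most 7.56% (Unc13d) and 19.5% for Syt4 against 2.83% (Syt11). The order was the opposite for Stx1a, at 16.6% against 24.9% for Stx3, and for Rims2, at 5.8% against 30.8% for the short family member Rims3. Of the 27 paralogs, 16 (59.3%) had a region over a TSS, against 39.1% of protein-coding genes, and 6 lay above the upper quartile of covered share, near the 25.0% of protein-coding genes that do.

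**Figure D5:**
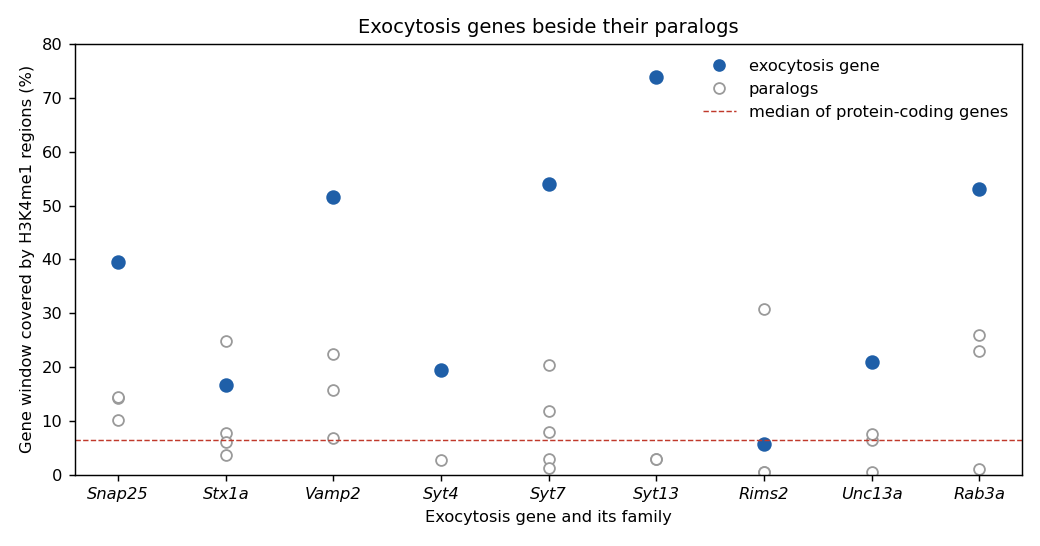
Share of the gene window covered by H3K4me1 regions (y axis, %) for each exocytosis gene (filled) and its listed paralogs (open), with the median of protein-coding genes (6.5%) as a dashed line. The filled point is the highest of its family except at Stx1a and Rims2.

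A further list held 48 other genes of regulated exocytosis, 23 of which are also among the paralogs. All but 1 had a region by the same rule, the exception being Sytl5 on chromosome X. A TSS was covered in 25 of the 48, which is 52.1% against 39.1% of protein-coding genes, and 14 lay above the upper quartile of covered share, as do 25.0% of protein-coding genes. Their median covered share was 9.54%, between that of protein-coding genes (6.5%) and that of the 9 exocytosis genes (39.6%). High shares were those of Rph3al, whose product Noc2 binds Rab3 (64.0%, 81.6 kb), Rab27a, a granule GTPase (54.4%, 39.6 kb), Rimbp2, a partner of RIM proteins (49.1%, in 22 regions), and Cplx2, a complexin (33.3%).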

How the data were processed

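H3K4me1 ChIP-seq of 1 pooled library of cytokine treated mouse islets was analysed. Reads had been aligned by the authors to mm9 using bowtie2 (version 2.2.1 per the submitters' processing notes) and enriched regions called with ChromHMM, whose version and settings are not given in the sources used here. For each region the deposited file gives a position on a 200 bp grid, with no count, height or p-value, so the depth behind a region is unknown. A region missing from it can reflect depth or threshold, and while the methods describe a later merge with untreated islets and a filter on low FPKM, whether the deposited list precedes these steps is not stated. Starts were converted to 1-based positions without other change. Gene models were those of GENCODE M1 and sequence came from the NCBIM37 genome, both of build mm9. A region belonged to a gene if it overlapped it or its nearest edge lay within 20 kb of any TSS. Percentiles count ties as 50%. All 9 genes are described. By the rule for named genes, the 5 other exocytosis genes with the highest covered share and those with no region were named, and neighbours where their TSS is the closer. Some items that these rules select are not reported here. The genes and the lists set beside them were chosen with earlier results of these data known. The upper quartile, the 40 kb window, the CpG classes and the comparison with neighbouring genes were chosen after the data were seen. The assignment of regions to genes was tested on simulated regions. RNA-seq samples were not analysed here. Python 3.11.15, numpy 2.4.6 and matplotlib 3.10.9 were used.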

Additional observations from a re-analysis of the deposited data

How the results depend on the processing

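No replicate could be left out, and no paired analysis was possible because only 1 library was analysed. Of 70 values under an alternative, over 8 results, 62 stayed within 1.5 times the reported value. Some of these could not move by definition, since not every alternative enters every result, so this count is no measure of stability. A window of 50 kb around each TSS gave 89 regions (57 with 20 kb) and a median of 11 per gene (5). Leaving out gene bodies gave 35 regions and 148 kb covered (229 kb). Measured from region midpoints, 0 of the 9 genes had a midpoint within 2 kb on both sides of the first TSS (6 by nearest base). This follows from the definition. The region that crosses the first TSS of Snap25, Stx1a, Vamp2 and Rab3a has 1 midpoint, on 1 side. At Syt13 and Unc13a the downstream region had its midpoint 21945 and 3845 bp from the nearest TSS of the gene. Chosen after the data were seen were the 9 alternatives for the other exocytosis genes with a region over a TSS (20 to 27 genes, 25 as reported), the alternative without Rims2, which gave 37 regions and 41.7% of the joined windows covered (23.3% with it), and RE1 with at most 2 mismatches, found in 0.168% of the covered bins of these genes (0.253%) and 0.0166% of all covered bins (0.0461%). The number of genes with a region over a TSS was 5 under all alternatives but 2: it was 4 with the first TSS only and 4 without Rims2. The window size, the midpoint distance and the gene bodies do not enter this count. Alternatives in these could therefore change neither it nor the count for the other exocytosis genes.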
